A study of Mus musculus with 5 samples.

Results

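The integrins considered here were 10 genes picked by name from 55573 in the count files: Itgam, Itgax, Itgal, Itgb2, Itga4, Itgb7, Itgb1, Itga5, Itgav and Itgb5. They encode adhesion chains of leukocytes and of vessel wall and matrix-attached cells. All 10 were among the 23592 genes that passed the filter on low counts. RNA was sequenced from the whole right hemisphere of GL261-bearing mice, with 3 mice in the vehicle group and 2 in the UMBO group. UMBO is ultrasound-mediated blood-brain barrier opening, in which low-intensity pulsed ultrasound is applied after intravenous microbubbles. All 5 mice were C57BL/6 females aged 7 to 8 weeks at inoculation, and all carried GL261 glioma cells transduced with a luciferase/mKate2 vector, placed in the right caudate nucleus-putamen. The vehicle group received inVivoPure Dilution Buffer. Sessions were held on days 21 and 24, and tissue was taken 24 h after the last one. GL261 is a transplanted mouse glioma line, so each library mixes RNA of tumor, brain, vessels and leukocytes.

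Integrins are membrane proteins made of one α and one β chain, and a chain reaches the cell surface only with a partner. Leukocytes carry the β2 family, in which Itgb2 (CD18) pairs with Itgal (CD11a, forming LFA-1), Itgam (CD11b, forming Mac-1 or complement receptor type 3) or Itgax (CD11c). Itga4 pairs with Itgb1 to form VLA-4, or with Itgb7 to form the gut-homing α4β7. Itgb1 also pairs with Itga5, the classic fibronectin receptor, while Itgav pairs with Itgb5 and other β chains to bind vitronectin and related matrix proteins. In the brain, CD11b is the standard surface marker of microglia and other myeloid cells, and αv and β1 integrins anchor endothelial cells, pericytes and astrocyte endfeet to the vascular basement membrane.

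Of the 10 genes, Itgam, Itgax and Itgal (127296260 to 127335138) lie on chromosome 7 (GRCm38), and Itgam (128062640 to 128118491) and Itgax (128129547 to 128150657) are neighbours there on the plus strand. Itgb2 is on chromosome 10 (77530252 to 77565708), Itgb1 on chromosome 8 (128685654 to 128733200) and Itgb5 on chromosome 16 (33829665 to 33949338). Itga4 (79255426 to 79333123) and Itgav (83724397 to 83806916) are on chromosome 2, and Itgb7 (102215995 to 102231944) and Itga5 (103344286 to 103366763) are on the minus strand of chromosome 15. Promoter sequences are shown for this neighbouring myeloid pair and for Itgb1 and Itgb5, the vascular and matrix genes with the smallest unadjusted p. Each is the 250 bases before the transcription start, read 5′ to 3′ on the gene's strand from RefSeq on GRCm38.p6. Windows were found for 8 of the 10 genes. Capitals mark GAGGAA, a PU.1 core motif (PU.1 is a myeloid transcription factor), and GGGCGG, a GC box, either as written or as the reverse complement.
Itgam: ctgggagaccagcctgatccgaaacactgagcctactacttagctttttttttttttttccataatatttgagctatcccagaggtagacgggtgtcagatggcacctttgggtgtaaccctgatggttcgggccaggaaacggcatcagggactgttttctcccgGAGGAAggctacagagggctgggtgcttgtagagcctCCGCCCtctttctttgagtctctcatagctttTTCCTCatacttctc
Itgax: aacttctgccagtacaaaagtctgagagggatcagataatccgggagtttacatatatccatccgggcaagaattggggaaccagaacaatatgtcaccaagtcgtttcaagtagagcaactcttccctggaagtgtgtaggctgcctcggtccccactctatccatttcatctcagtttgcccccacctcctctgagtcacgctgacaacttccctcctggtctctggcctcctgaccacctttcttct
Itgb1: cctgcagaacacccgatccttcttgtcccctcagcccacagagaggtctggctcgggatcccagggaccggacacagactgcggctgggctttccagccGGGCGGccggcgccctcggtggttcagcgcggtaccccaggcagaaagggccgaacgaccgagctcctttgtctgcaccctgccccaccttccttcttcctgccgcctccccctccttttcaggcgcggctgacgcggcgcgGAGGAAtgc
Itgb5: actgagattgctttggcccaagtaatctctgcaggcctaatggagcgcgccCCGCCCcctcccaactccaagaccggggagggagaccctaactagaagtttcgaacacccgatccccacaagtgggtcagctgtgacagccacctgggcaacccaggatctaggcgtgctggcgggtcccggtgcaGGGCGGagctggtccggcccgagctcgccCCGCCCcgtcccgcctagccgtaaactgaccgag
The Itgam window (chr7:128062390-128062639) held GAGGAA at 84 and at 15 bases before the start and a GC box at 47. The Itgax window (chr7:128129300-128129549) held neither motif. The Itgb1 window (chr8:128685404-128685653) held GAGGAA at 9 bases and a GC box at 151 bases before the start. The Itgb5 window (chr16:33829415-33829664) held 3 GC boxes and no GAGGAA. Of the 8 windows, 4 contained GAGGAA, against 23.3% of all 32851 promoter windows of this length, and 5 contained GGGCGG, against 32.7%. TATAAA was in none of the 8 and in 12.4% of all windows. The GC content was 49.6% for Itgam and 50.0% for Itgax, below the median of 52.4% over all windows, and 68.0% for Itgb1 and 65.2% for Itgb5, above it. A letter match describes the sequence and is not evidence of binding.

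The libraries held 59736771 to 86164159 counts in genes, and levels are given as CPM, that is, counts scaled to a common library size with TMM normalization. UMBO replicate 2 stood apart from the others, at 134 on the first principal component (78.7% of the variance) against -68.4 to 17.0 for the other 4 libraries. Results are therefore also given without it. The labels give each sample as a separate mouse, and p-values measure the spread between these 5 mice.

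Transcripts of the leukocyte β2 integrins were higher on average in the UMBO group, by 2.98-fold for Itgam, 2.84-fold for Itgax, 2.61-fold for Itgb2 and 1.71-fold for Itgal. None of the 4 passed adjustment over all genes, and the vehicle mice themselves differed widely. Of these genes only Itgam was higher in both UMBO mice than in all 3 controls. In whole tissue, more cells of a type and more RNA per cell cannot be told apart.

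Itgam, the CD11b chain, was at 7.86, 16.5 and 9.47 CPM in the vehicle libraries and at 20.8 and 46.3 CPM in the UMBO libraries. The groups did not overlap, and vehicle replicate 2 was the nearest control. The means were 11.3 ± 4.57 CPM (SD, n = 3) and 33.5 ± 18 CPM (SD, n = 2). The log2 fold change was 1.57 (SE 0.447, 95% interval 0.48 to 2.67), with an unadjusted p of 0.0125. The adjusted p was 0.497 by edgeR's quasi-likelihood test with Benjamini-Hochberg adjustment. This log2 fold change was 0.88 without UMBO replicate 2 (unadjusted p = 0.0578) and 2.01 without UMBO replicate 1.

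Itgb2 is the chain that every one of these heterodimers requires. It was at 7.76, 24.5 and 13.4 CPM in vehicle mice and at 23.0 and 56.4 CPM in UMBO mice. UMBO replicate 1 lay just under vehicle replicate 2, so the groups overlapped. The log2 fold change was 1.38 (SE 0.561, 95% interval 0.01 to 2.76), with an unadjusted p of 0.0488 and an adjusted p of 0.497 in the same edgeR quasi-likelihood test. Without UMBO replicate 2 it was 0.60.

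Itgax, the CD11c chain of dendritic cells and of activated microglia, was at 2.51, 13.2 and 4.25 CPM in vehicle mice. It was at 9.52 and 28.3 CPM in UMBO mice. Vehicle replicate 2 exceeded UMBO replicate 1, and the log2 fold change of 1.50 (SE 0.778, 95% interval -0.40 to 3.41) spanned 0. It was 2.52 without vehicle replicate 2 and 0.51 without UMBO replicate 2.

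Itgal, the CD11a chain carried mostly by lymphocytes, had 2.42, 7.65 and 3.89 CPM in vehicle mice and 3.81 and 12.1 CPM in UMBO mice. UMBO replicate 1 was within the vehicle range. The log2 fold change was 0.77 (SE 0.645, 95% interval -0.81 to 2.35), and it changed sign to -0.29 without UMBO replicate 2. The higher mean of Itgal thus rested on a single library, whereas the other β2 genes were still above 0 without it.

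**Figure D1:**
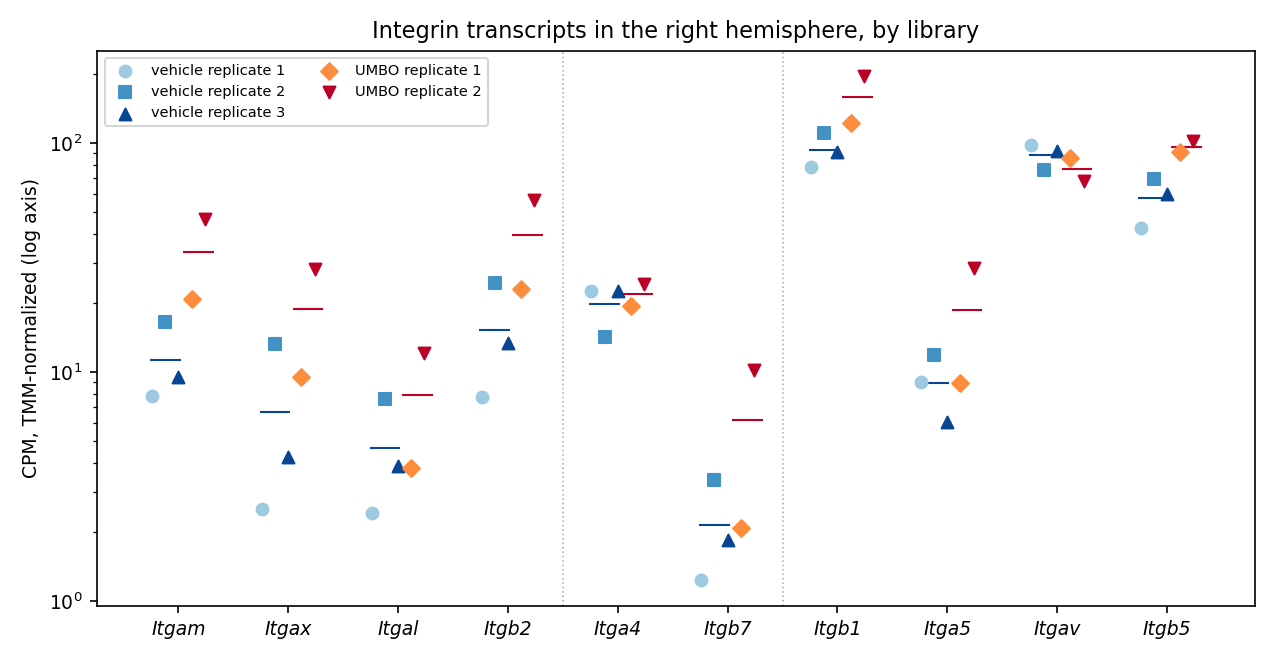
Level of each integrin gene in each library, in TMM-normalized CPM on a log axis, with a short line at each group mean (3 vehicle libraries in blue, 2 UMBO libraries in orange and red). Both UMBO libraries lie above every vehicle library for Itgam, Itgb1 and Itgb5, and UMBO replicate 2 is the highest library for every gene but Itgav.

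Chains with Itga4 or Itgb7 gave no common picture. Itga4, which lets lymphocytes and monocytes bind VCAM-1, was at 22.6, 14.2 and 22.6 CPM in vehicle mice and at 19.4 and 24.2 CPM in UMBO mice. The UMBO values straddled the upper vehicle values, and the log2 fold change was 0.14 (SE 0.266, 95% interval -0.51 to 0.79). Leaving out vehicle replicate 2 or UMBO replicate 2 moved it to -0.023 and -0.030. Exons of Itga4 share 1124 of 13978 bases with Cerkl on the opposite strand, and the strand setting of the counting is not given in the sources used here.

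Itgb7, the partner of α4 and of αE, was the scarcest member in CPM. It had 1.23, 3.38 and 1.84 CPM in vehicle mice and 2.09 and 10.2 CPM in UMBO mice. UMBO replicate 1 was again inside the vehicle range, and the log2 fold change of 1.51 (SE 0.727, 95% interval -0.27 to 3.29) was -0.038 without UMBO replicate 2.

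The vascular and matrix chains divided by gene. Itgb1 and Itgb5 were higher in both UMBO mice than in every vehicle mouse, by 1.71-fold and 1.68-fold on average. Itga5 was high in a single UMBO library, and Itgav was the only member with a lower mean in the UMBO group.

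Itgb1, the shared β chain of VLA-4, VLA-5 and the laminin receptors, was at 78.4, 110 and 90.9 CPM in vehicle mice. It was at 122 and 196 CPM in UMBO mice, and the lower of these was above all controls. The means were 93.2 ± 16.0 CPM (SD, n = 3) and 159 ± 52.1 CPM (SD, n = 2). The log2 fold change was 0.77 (SE 0.271, 95% interval 0.11 to 1.43), with an unadjusted p of 0.0298 and an adjusted p of 0.497 by edgeR's quasi-likelihood test with Benjamini-Hochberg adjustment. It was 0.39 without UMBO replicate 2.

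Itgb5, a vitronectin receptor chain that is also abundant in microglia, was at 42.4, 69.5 and 60.0 CPM in vehicle mice and at 91.0 and 102 CPM in UMBO mice. The UMBO libraries lay close together and above all controls, with means of 57.3 ± 13.7 CPM (SD, n = 3) and 96.4 ± 7.61 CPM (SD, n = 2). Its log2 fold change was 0.75 (SE 0.243, 95% interval 0.16 to 1.34), with an unadjusted p of 0.0213 and an adjusted p of 0.497 in the same edgeR fit. Without any single library it lay between 0.57 and 0.94, and the value without UMBO replicate 2 was 0.67. Of the members with an unadjusted p under 0.05, Itgb5 was the only one to keep it without UMBO replicate 2 (unadjusted p = 0.0458), although it did not do so without vehicle replicate 1 (unadjusted p = 0.0535) or vehicle replicate 3 (unadjusted p = 0.0573).

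Itga5, the fibronectin-binding partner of β1, was at 9.04, 11.8 and 6.07 CPM in vehicle mice and at 8.94 and 28.3 CPM in UMBO mice. UMBO replicate 1 lay in the middle of the vehicle range. The log2 fold change was 1.05 (SE 0.520, 95% interval -0.22 to 2.33) over all libraries and -0.0033 without UMBO replicate 2.

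Itgav, the αv chain shared by several matrix receptors, had 97.7, 76.1 and 92.1 CPM in vehicle mice and 85.6 and 68.1 CPM in UMBO mice. The groups overlapped, and the log2 fold change was -0.21 (SE 0.203, 95% interval -0.70 to 0.29). It stayed below 0 whichever library was left out (-0.41 to -0.05). Exons of Itgav share 634 of 10744 bases with Gm13684 on the opposite strand.

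**Figure D2:**
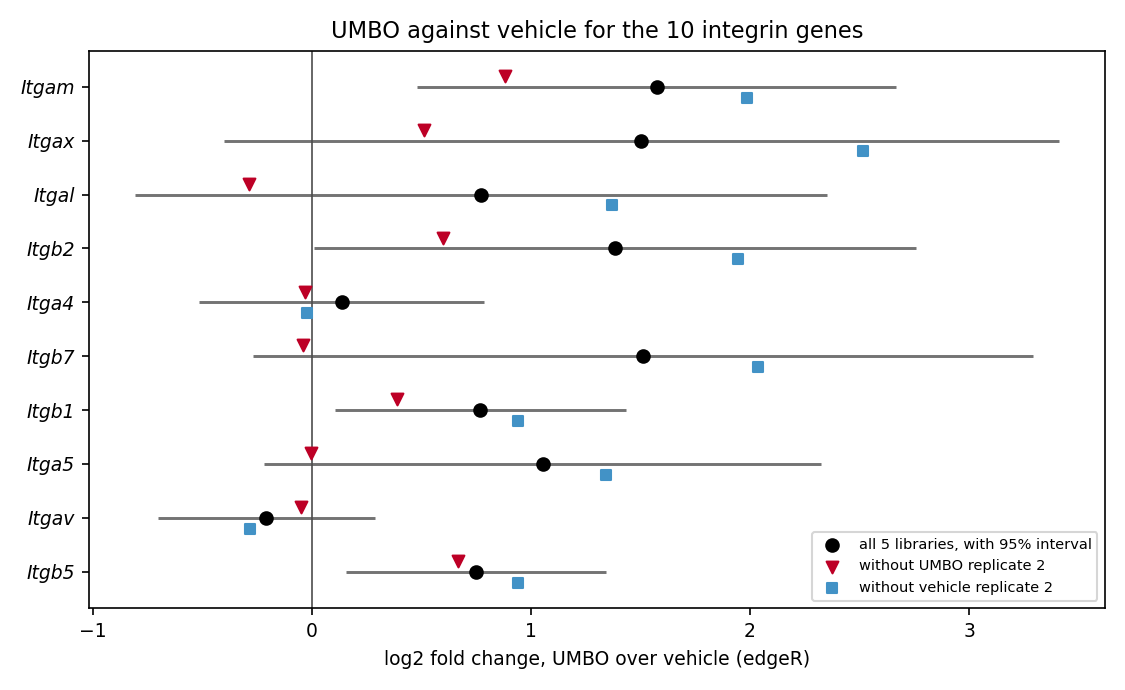
Log2 fold change of UMBO over vehicle for the 10 genes from edgeR, with all 5 libraries (black points with 95% intervals), without UMBO replicate 2 (red) and without vehicle replicate 2 (blue). The intervals of Itgam, Itgb2, Itgb1 and Itgb5 lie above 0, and without UMBO replicate 2 the points of Itgal, Itga4, Itgb7, Itga5 and Itgav sit at or below 0.

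Considered together, 9 of the 10 genes had a higher mean with UMBO, and their median log2 fold change was 0.91, against 0.01 over all genes tested. No member had an adjusted p under 0.05 by edgeR's quasi-likelihood test, where the share over all genes was 0%, or by DESeq2, which called 39 other genes. At an unadjusted p under 0.05 by edgeR there were 4 members, all higher with UMBO (Itgam, Itgb2, Itgb1 and Itgb5), while 5.3% of all genes tested were higher and 2.06% lower at that level. Both UMBO libraries were above every vehicle library for 3 of 10 members, against 11.5% of all genes, and below for 0 of 10, against 11.4%. The DESeq2 Wald test gave 6 members at an unadjusted p under 0.05, all higher, against 4.87% of all genes higher at that level. That share is over 40435 genes, without the filter on low counts, whereas the edgeR shares are over 23592 genes. Without UMBO replicate 2 the median was 0.19, 5 of 10 members were higher, and 1 member (Itgb5) was at an unadjusted p under 0.05, against 1.15% of all genes higher at that level. Without UMBO replicate 1, which left only UMBO replicate 2 in its group, the median was 1.49. Without vehicle replicate 1 or vehicle replicate 3 only Itgam, which was higher, was at an unadjusted p under 0.05 by edgeR. The shares of all genes higher at that level were 0.838% and 0.945%. The 4 β2 chains had a median log2 fold change of 1.44 (0.56 without UMBO replicate 2), and the 4 vascular and matrix chains had one of 0.76 (0.19 without it).

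Levels of different genes were compared as CPM per kilobase of exon, that is, per length. In the vehicle group Itgb1 was the most abundant member, at 22.8 ± 3.93 (SD, n = 3), followed by Itgb5 at 16.1 ± 3.87 and Itgav at 8.25 ± 1.04. Itgb2 followed at 4.99 ± 2.80 and Itgam at 2.24 ± 0.909. The lower places were held by Itga5 at 1.82 ± 0.582, Itga4 at 1.42 ± 0.346, Itgax at 1.39 ± 1.20, Itgb7 at 0.777 ± 0.400 and Itgal at 0.708 ± 0.411. Neighbours in this order had overlapping vehicle ranges, except Itgb5 and Itgav, which were separate. Itgb1 was nonetheless above Itgb5 in 5 of 5 libraries. The vehicle means of the matrix chains Itgb1, Itgb5 and Itgav were above those of all the leukocyte α chains, although in UMBO replicate 2 Itgam (9.21) was above Itgav (6.33).

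The order depended on the length used. Per coding length, Itgav (28.3 ± 3.58) came before Itgb5 (23.4 ± 5.62), with overlapping vehicle ranges, and Itga4 (6.40 ± 1.56) reached the level of Itgb2 (6.59 ± 3.69). For Itgam, 3450 of 5024 exonic bases are shared with Gm49368, an annotated gene on the same strand that had 0 to 2 reads per library. Shared reads were therefore not credited to Gm49368, and whether they were dropped or given to Itgam is not stated. Over the 1574 unshared bases the vehicle level of Itgam would be 7.16 ± 2.90 if shared reads were dropped, which would place it near Itgav. This bears on the level and not on the direction of the difference between the groups.

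**Figure D3:**
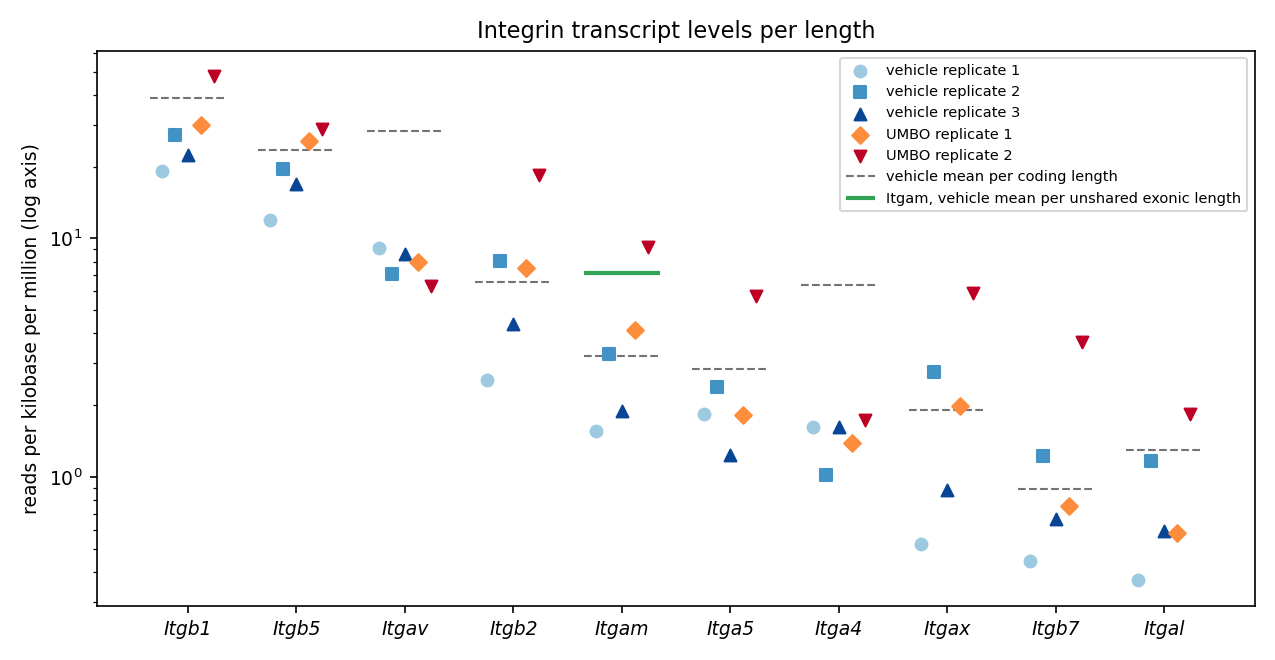
CPM per kilobase of exon for each gene and library (log axis), ordered by the vehicle mean, with dashed lines at the vehicle mean per coding length and a green line at the vehicle mean of Itgam per unshared exonic length. Itgb1 leads with a vehicle mean of 22.8, and the dashed line of Itgav, at 28.3, is above that of Itgb5, at 23.4.

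Because chains act in pairs, 19 ratios of members to a partner or to a reference gene were also compared within each library, by exact permutation (2-sided, all 10 ways to divide the libraries), whose p cannot go below 0.1. No ratio could therefore reach 0.05, and the smallest Benjamini-Hochberg adjusted p was 0.691. The β2 α chains together kept a narrow relation to Itgb2: the sum of Itgam, Itgax, Itgal and Itgad (a further β2 partner) per kilobase of exon was 0.985, 0.900 and 0.773 times Itgb2 in vehicle mice and 0.896 and 0.918 times in UMBO mice. UMBO values lay within the vehicle range. Itgam made up 45.3% to 62.5% of that sum over the 5 libraries, and Itgax 20.9% to 38.1%. With Itgam taken over its unshared bases instead, the sum was 1.72 to 2.34 times Itgb2 and Itgam made up 72.5% to 84.2% of it, so these shares depend on how the shared reads were counted.

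Itgal, by contrast, was a smaller part of the β2 chains in both UMBO mice. The ratio of Itgal to Itgb2 per kilobase was 0.145, 0.145 and 0.135 in vehicle mice and 0.0769 and 0.0996 in UMBO mice. The vehicle values were nearly equal, although Itgb2 itself varied from 7.76 to 24.5 CPM among those mice, and the UMBO values were separate from them. The log2 difference was -0.69 (exact permutation p = 0.1, the smallest possible). The ratio of Itgam to Itgb2 per kilobase of exon was 0.616, 0.408 and 0.430 in vehicle mice and 0.548 and 0.498 in UMBO mice, which overlapped (exact permutation p = 0.6).

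Relative to Ptprc, the pan-leukocyte CD45 gene, Itgam reads were 0.944, 0.999 and 0.624 in vehicle mice and 1.27 and 1.50 in UMBO mice. The groups were separate, with a log2 difference of 0.72 (exact permutation p = 0.1). Ptprc itself was at 8.33, 16.5 and 15.2 CPM in vehicle mice and at 16.4 and 30.9 CPM in UMBO mice, and these ranges overlapped. Itgal to Ptprc, at 0.256 to 0.465 in vehicle mice and 0.233 and 0.391 in UMBO mice, overlapped as well (exact permutation p = 0.8).

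Itgb1 tracked Pecam1, the endothelial CD31 gene, more closely than any other member tracked its reference gene. The ratio of reads was 4.95, 4.43 and 4.23 in vehicle mice and 4.08 and 4.35 in UMBO mice, so that the highest was 1.21 times the lowest. Itgb5 to Pecam1 was nearly as even, at 2.68, 2.79 and 2.79 in vehicle mice and 3.04 and 2.26 in UMBO mice, a span of 1.34 times. Pecam1 was at 15.8, 24.9 and 21.5 CPM in vehicle mice and at 29.9 and 45.0 CPM in UMBO mice. The summed level of 9 endothelial markers, Pecam1 among them, did not share this order. It was 293 CPM in UMBO replicate 1 and 272 CPM in UMBO replicate 2. The ratio thus describes Itgb1 against a single gene and not against the endothelial list. Itgav did not keep such a relation, since its ratio to Pecam1 ran from 6.17 to 3.06 in vehicle mice and was 2.86 and 1.51 in UMBO mice (exact permutation p = 0.2). Relative to Itgb5 per kilobase, Itgav was at 0.763, 0.362 and 0.508 in vehicle mice and at 0.311 and 0.221 in UMBO mice. Both UMBO values were below all controls, with a log2 difference of -0.99 (exact permutation p = 0.2).

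**Figure D4:**
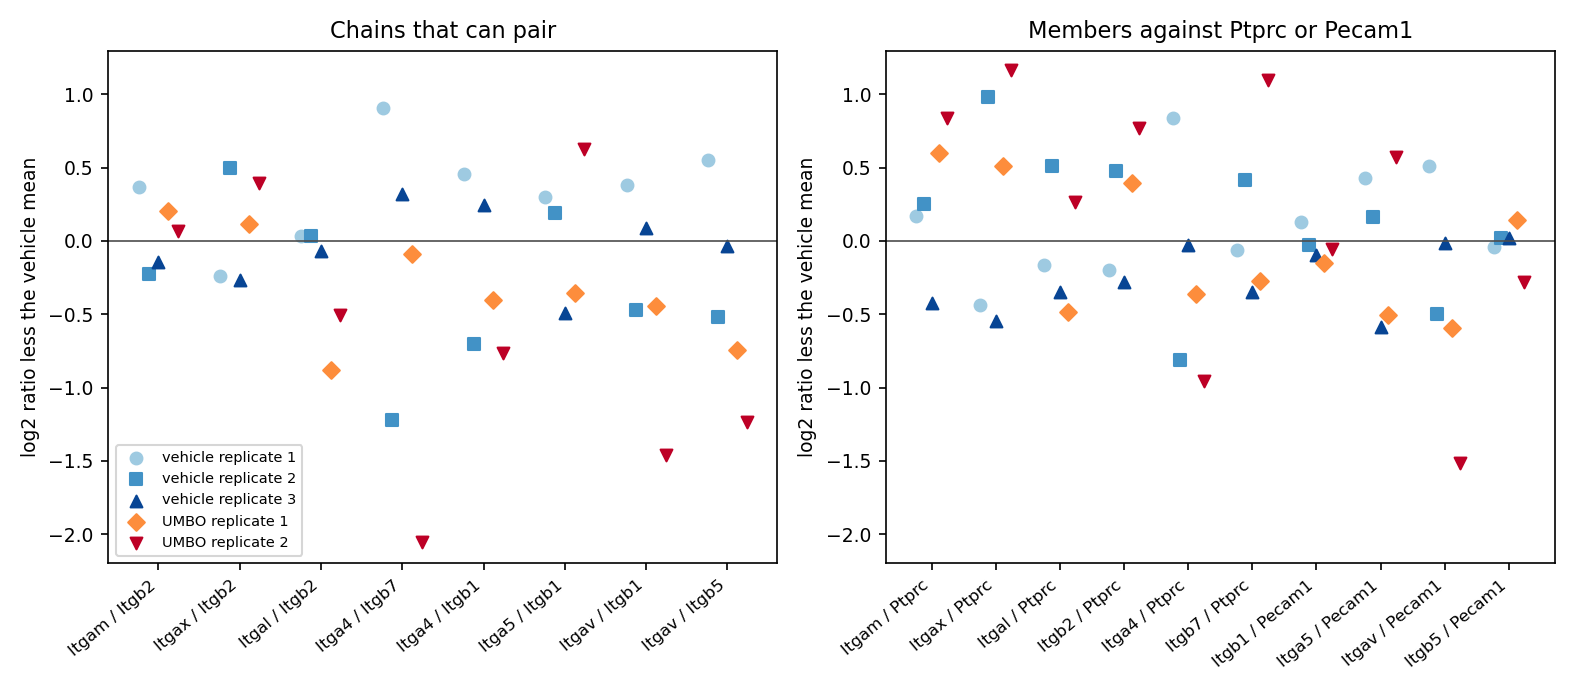
Log2 ratio of chains that can pair (left, per kilobase of exon) and of members to Ptprc or Pecam1 (right, read counts) in each library, less the mean of the vehicle libraries. Both UMBO libraries are below all vehicle libraries for Itgal over Itgb2, Itgav over Itgb5 and Itgav over Pecam1 and above them for Itgam over Ptprc, and the points of Itgb1 over Pecam1 lie close together (4.08 to 4.95 before the log).

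Of 17 other integrin genes 16 were tested (all but Itgb2l), and 9 had a higher and 7 a lower mean with UMBO. Their median log2 fold change was 0.15 (0.027 without UMBO replicate 2). At an unadjusted p under 0.05 by edgeR there was 1 gene higher and 0 lower, against 5.3% and 2.06% of all genes, so the count was near the background share. That gene was Itga1, a collagen-binding partner of β1, at 12.6, 14.8 and 17.3 CPM in vehicle mice and 20.1 and 23.1 CPM in UMBO mice. The UMBO libraries were above all controls, and the log2 fold change was 0.53 (SE 0.208). Itga9, another β1 partner, was at 12.7, 10.2 and 12 CPM in vehicle mice and lower, at 9.13 and 7.53 CPM, in both UMBO mice (log2 fold change -0.48, SE 0.223). Itga2b, the platelet αIIb chain, was at 2.42, 2.92 and 3.17 CPM in vehicle mice and at 3.23 and 4.92 CPM in UMBO mice (log2 fold change 0.52, SE 0.312, and 0.19 without UMBO replicate 2), where UMBO replicate 1 was barely above the controls.

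Of 19 integrin ligand genes 16 were tested (the fibrinogen genes Fga, Fgb and Fgg were not), with 10 higher and 6 lower means and a median log2 fold change of 0.19 (0.10 without UMBO replicate 2). At an unadjusted p under 0.05 by edgeR there were 2, both higher, against 5.3% of all genes higher at that level. Spp1 encodes osteopontin, a ligand of αv and α4 integrins, and had 9.24, 17.9 and 17.8 CPM in vehicle mice and 33.9 and 237 CPM in UMBO mice. UMBO replicate 2 alone accounted for most of that mean, and the log2 fold change of 3.18 (SE 0.776) was 1.18 without it. F11r (JAM-A, a junctional ligand of LFA-1) was at 11.3, 20.8 and 15.8 CPM in vehicle mice and at 23.5 and 37.0 CPM in UMBO mice, with both UMBO libraries above all controls (log2 fold change 0.92, SE 0.324, and 0.56 without UMBO replicate 2). Icam1, the endothelial counter-receptor of LFA-1 and Mac-1, was at 4.20, 12.4 and 6.71 CPM in vehicle mice and at 9.78 and 31.8 CPM in UMBO mice. The groups overlapped for Icam1, and its log2 fold change of 1.42 (SE 0.617) was 0.33 without UMBO replicate 2.

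All 24 integrin activation and adaptor genes were tested, with 16 higher and 8 lower means and a median log2 fold change of 0.29 (0.13 without UMBO replicate 2). At an unadjusted p under 0.05 by edgeR there were 4 higher and 1 lower, against 5.3% and 2.06% of all genes. The lower gene was Rasgrp2 (CalDAG-GEFI), an activator of Rap1 in platelets and leukocytes that is also strongly transcribed in striatal neurons. It was at 61.7, 64.2 and 60.7 CPM in vehicle mice and at 36.2 and 42.9 CPM in UMBO mice, so the groups were far apart relative to the vehicle spread (log2 fold change -0.65, SE 0.163). Apbb1ip (RIAM), which links Rap1 to talin, was at 11.4, 19.7 and 12.7 CPM in vehicle mice and at 21.0 and 46.1 CPM in UMBO mice (log2 fold change 1.20, SE 0.398, and 0.52 without UMBO replicate 2). Fyb (ADAP), an adaptor of leukocyte integrin activation, was at 6.35, 11.1 and 8.92 CPM in vehicle mice and at 11.5 and 30.4 CPM in UMBO mice (log2 fold change 1.25, SE 0.449, and 0.38 without UMBO replicate 2). Both were above all controls in both UMBO mice, narrowly so in UMBO replicate 1. Reads of overlapping genes may be split or mixed for Spp1, which shares 18.8% of its exonic bases with Gm42793 on the same strand, and for Icam1, which shares 11.7% with Gm47079 on the opposite strand; for Itga1, Rasgrp2 and Fyb any one overlap was at most 5.9%. In each of these 3 lists, 0 genes had an adjusted p under 0.05 by edgeR's quasi-likelihood test.

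Markers of several cell types moved with these genes, and their part in the integrin differences was not tested. The summed level of 9 microglia markers was 349 to 503 CPM in vehicle mice and 681 to 820 CPM in UMBO mice, with 7 of the 9 above all controls in both UMBO mice. Of all genes tested, 11.5% were above all controls in both UMBO mice. The 9 endothelial markers summed to 172 to 241 CPM and 272 to 293 CPM, with 6 of 9 above all controls, and the 6 fibroblast markers to 130 to 171 CPM and 255 to 266 CPM, with 5 of 6. The 4 pan-leukocyte markers summed to 135 to 207 CPM and 208 to 357 CPM, with 2 of 4. All 4 of these sums were higher in both UMBO mice than in every control, by a small margin for the pan-leukocyte markers.

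For infiltrating leukocytes, the sums of some lists overlapped and those of others did not. The 10 monocyte and macrophage markers, of which 9 were tested, summed to 46.3 to 139 CPM in vehicle mice and 118 to 464 CPM in UMBO mice. Of these markers 2 were above all controls in both UMBO mice, against 11.5% of all genes tested. The 10 T cell markers summed to 22.7 to 38.9 CPM and to 14.7 and 54.5 CPM, with 0 of 10 above all controls, near that share. The 7 NK cell markers summed to 2.50 to 8.65 CPM and to 5.32 and 33.4 CPM. UMBO replicate 1 had the lowest sum of T cell markers and UMBO replicate 2 the highest. The order at the low end depended on the measure. The median log2 deviation of T cell markers from the vehicle mean was lowest in vehicle replicate 1 (-0.76), against -0.59 in UMBO replicate 1. Itgal was within the vehicle range in UMBO replicate 1 and highest in UMBO replicate 2. The 10 neutrophil markers, of which 6 were tested, summed to 9.80 to 16.3 CPM and to 22.2 and 29.5 CPM, which were separate, and Ly6g was at 0 in a library. B cell markers (24.1 to 43.6 CPM and 27.7 to 31.5 CPM) overlapped between the groups. The sum of the 7 dendritic cell markers was lower in both UMBO mice (23.6 to 30.0 CPM and 21.9 to 22.5 CPM), but 5 of the 7 had a higher mean with UMBO. The platelet sum was higher in both UMBO mice (3.97 to 5.00 CPM and 5.32 to 9.07 CPM). Much of that sum was the integrin Itga2b, which is on the list, at 2.42 to 3.17 CPM in vehicle mice and 3.23 and 4.92 CPM in UMBO mice.

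Among the remaining lists, the 10 proliferation markers summed to 33.6 to 112 CPM in vehicle mice and 115 to 501 CPM in UMBO mice, with the sums separate by a small margin. Of these markers 6 of 10 were above all controls in both UMBO mice, against 11.5% of all genes tested. The 8 neuron markers summed to 4806 to 7681 CPM and 2580 to 4971 CPM, which overlapped, since UMBO replicate 1 was within the vehicle range. Of the neuron markers 0 of 8 had a higher mean with UMBO, and of the oligodendrocyte markers 0 of 5. Pericyte and smooth muscle markers (177 to 236 CPM and 222 to 257 CPM), astrocyte markers (3224 to 4490 CPM and 3067 to 5085 CPM) and oligodendrocyte markers (5384 to 5483 CPM and 4848 to 5709 CPM) overlapped between the groups. Vehicle replicate 2 was the highest control for every member except Itga4 and Itgav, for which it was the lowest. Among the vehicle mice it also had the highest sums of microglia, pan-leukocyte, monocyte and macrophage, T cell, NK cell and B cell markers. The same held for neutrophil, platelet, proliferation and oligodendrocyte markers. Sums of dendritic cell, endothelial, pericyte and smooth muscle, fibroblast and astrocyte markers were highest in vehicle replicate 3, and that of neuron markers in vehicle replicate 1.

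The genes whose profile over the 5 libraries was most like that of Itgb2 were Tes, Ctsc and Glipr2, with Euclidean distances of 0.147, 0.150 and 0.170 between mean-centred log2 CPM values, against a median of 2.22 over 16432 genes. Ctsc encodes cathepsin C, a lysosomal protease of myeloid cells, and was at 15.2, 47.2 and 24.6 CPM in vehicle mice and at 39.4 and 107 CPM in UMBO mice. Those most like Itgb1 were Lix1l, Olig1 and Efs, with distances of 0.029, 0.033 and 0.046 against a median of 1.21. Olig1, a transcription factor of the oligodendrocyte lineage, was at 95.2, 133 and 107 CPM in vehicle mice and at 145 and 235 CPM in UMBO mice. With 5 libraries such likeness is a description of the profiles only.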

How the data were processed

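The samples were right hemispheres of 5 mice with GL261 tumors, 3 vehicle and 2 UMBO by the labels, analysed by bulk RNA sequencing. The paper describes equal groups, and the further UMBO mouse was not analysed here. The authors mapped reads with STAR 2.7.2a to GRCm38 and deposited raw read counts per Ensembl gene, 1 table per library and not normalized. Annotation release and strand setting are not given in the sources used here, and the submitters' processing notes also name DESeq2 and mm10. Symbols (55480 of 55573 genes), positions and lengths came from GENCODE M21 on GRCm38.

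TMM factors scaled the counts, filterByExpr took out low-count genes, and all that remained were fitted without covariates by edgeR 4.0.16 (R 4.3.3), with its quasi-likelihood test and Benjamini-Hochberg adjustment at 0.05. The common dispersion was 0.118. CPM values are TMM-normalized, and profiles used log2 CPM with a prior count of 2. Intervals are at 95%. DESeq2 1.42.0 was an alternative, with other normalizations, filters, the replicate number as a block, and each library left out in turn. The scripts were tested on simulated data. At these depths the spread between mice, not counting error, limits precision. No 2 libraries agreed within sampling noise (chi-square per gene at least 36.6).

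The members and gene lists were chosen with earlier results of these data known. Named genes were the 10 members, the 3 lowest-p genes of each further list, the 3 genes closest to Itgb2 and to Itgb1 among genes with a mean of at least 1 CPM, and Ptprc and Pecam1 as references. Itgad and genes with overlapping exons were named after their values or annotation were seen. Marker lists name typical genes of each cell type, and some are expressed by more than one.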

Additional observations from a re-analysis of the deposited data

How the results depend on the processing

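Calls depended on which libraries were kept. Members at an unadjusted p under 0.05 numbered 4 (5.3% of all genes were higher at that level), 7 without a filter on low counts (7.31%), 8 with the replicate block (14.4%) and 1 to 8 when a library was left out (0.838% to 21.4%). Members with an adjusted p under 0.05 numbered 0, 6 with the replicate block (9.91% of all genes) and 0 to 5 when a library was left out (5 without UMBO replicate 1, where 18.3% of all genes passed). The labels give replicate numbers but no shared litter or day, and only 2 numbers occur in both groups (correlations of deviations 0.453 and 0.760), so the numbers were not taken as pairs. The median log2 fold change of the members was 0.19 to 1.49 when a library was left out. Members with both UMBO libraries above every vehicle library numbered 3 without vehicle replicate 1 or vehicle replicate 3, and 6 without vehicle replicate 2. Taken alone, UMBO replicate 2 was above every vehicle library for 9 members and UMBO replicate 1 for 3. The share over all genes (11.5%) was computed only with all 5 libraries. The counts with fewer libraries therefore have no share beside them and cannot be read as a result about the members. Other integrins at an unadjusted p under 0.05 numbered 1, 0 without the filter and by DESeq2, 3 with the replicate block and 0 to 3 when a library was left out. Ligands numbered 2, 7 with the block and 1 to 8, and activation and adaptor genes 5, 10 with the block and 1 to 14. These list counts take both directions, whereas the shares given for the members are of genes higher only. In both directions, 1738 of all 23592 genes were at that level in the main fit and 6134 with the block. Without a vehicle library the number ran from 296 of 23137 to 2674 of 23120. The highest count of each list was without UMBO replicate 1, which left only UMBO replicate 2 in its group. With a library left out the log2 fold change ran from -0.29 to 1.37 for Itgal, from -0.030 to 0.26 for Itga4, from -0.038 to 2.22 for Itgb7 and from -0.0033 to 1.63 for Itga5. Each lowest value was without UMBO replicate 2, and Itga4 was also below 0, at -0.023, without vehicle replicate 2. Per coding length 3 of 10 members held their place in the order of levels. The cause of these changes was not tested. Scaling by library size alone moved the median of all genes from 0.01 to 0.13 and left the direction of every member as it was.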
